A study of Homo sapiens with 8 samples.

Results

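This account covers 38 genes of the oxygen response and of sugar breakdown in the embryonic stem cell line H1, a human line. The genes were taken from a list of symbols: 17 glycolytic enzymes, 20 other genes known as targets of the hypoxia-inducible factor HIF, and HIF1A itself. A total of 36 of the 38 had an array probe with that symbol, and 35 were bright enough to be tested, among 12436 genes tested in all. SLC16A3 and CA9 were not analysed here, and PDK1 read 103 to 109 on every array, below the filter. Where several probes carried a symbol, the brightest was used. The cells had received, with polybrene, a lentivirus labelled as overexpressing NANOG, OCT4 (the product of POU5F1) or SOX2, or a control lentivirus labelled with the EF1a promoter. All 4 groups were thus transduced, each was measured on 2 Illumina arrays, while neither the promoter of the factor vectors nor the time of harvest is stated. The groups are called NANOG, OCT4, SOX2 and control cells by their labels. Whether replicates came from separate cultures is not labelled, and p-values therefore cover only the array-to-array spread, possibly a technical one.

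Glycolysis splits glucose into pyruvate in the cytosol, and lactate dehydrogenase can then turn pyruvate into lactate, which frees the pathway to run without oxygen. HIF is a transcription factor whose alpha subunit is destroyed when oxygen is present, after prolyl hydroxylases of the EGLN family mark it. When oxygen is low, HIF raises glucose transporters, most glycolytic enzymes, mitophagy receptors such as BNIP3 and secreted factors such as VEGFA and ADM. Human pluripotent stem cells of the primed state are known for a strongly glycolytic metabolism.

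All 9 measured stem cell markers were above the filter on every array. Their summed intensity was 26477 and 27111 in NANOG, 22934 and 22940 in OCT4, 19745 and 22055 in SOX2 and 25933 and 27378 in control cells. By limma (adjusted p under 0.05), 4 of the 9 were higher and 0 lower in NANOG than in SOX2 cells. That is 44.4%, against 17.7% of all tested genes. In SOX2 cells against control 0 rose and 2 fell, TERF1 and DNMT3B, or 22.2%, against 11.1% of all tested genes. Of 7 blood and endothelial markers, PTPRC, PECAM1, CDH5 and HBG1 were below the filter in all groups. The other 3, TEK, HBA1 and KDR, were above it on both arrays of every group. Of 7 fibroblast markers, LUM was below the filter in all groups. Those above it on both arrays numbered 3 in NANOG, 5 in OCT4, 4 in SOX2 and 4 in control cells. Of 6 tested fibroblast markers 2, COL1A2 and THY1, were higher and 0 lower in NANOG than in SOX2 cells by limma. That is 33.3%, against 17.7% of all tested genes. In SOX2 cells against control COL1A2 alone fell, or 16.7%, against 11.1% of all. Both COL1A2 calls were lost with the mean of all probes and with array weights, and that on THY1 with only the 2 groups compared. Replicate arrays correlated across the tested genes, which are not independent replicates, at 0.996 in NANOG, 0.991 in OCT4, 0.969 in SOX2 and 0.988 in control cells. No probe of the transduced factors that was used here read higher in the cells labelled with that factor than in both control arrays. The POU5F1 probe, for example, read 1793 and 1501 in OCT4 cells, against 3447 and 2833 in control cells. Where these probes lie relative to the vector inserts is not known, so they do not check the labels. The array platform names probes by symbol, and a probe can also bind transcripts of close gene copies, which are common for GAPDH, LDHA, PGK1, PGAM1, ENO1 and PKM, so these genes are uncertain.

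More of these genes passed between NANOG and SOX2 cells and between NANOG and OCT4 cells than between any factor and control. The mitophagy receptor gene BNIP3, the lactate dehydrogenase gene LDHA, the glycolytic enzyme gene PGK1, the flux regulator gene PFKFB4 and the collagen-modifying enzyme gene P4HA1 were higher in NANOG than in SOX2 cells and higher in NANOG than in OCT4 cells. The peptide hormone gene ADM ran the other way in both comparisons and was lowest in NANOG cells and highest in SOX2 cells. Between NANOG and SOX2 cells, 8 of the 35 tested genes were higher and 3 lower, which is 31.4% of them, while 17.7% of all tested genes passed in that comparison. Between NANOG and OCT4 cells 7 were higher and 3 lower, or 28.6%, against 7.16% of all tested genes. Between OCT4 and SOX2 cells 2 were higher and 2 lower, or 11.4%, against 6.9% of all. By direction, all tested genes passed as higher and lower at 8.81% and 8.93% for NANOG against SOX2, at 4.32% and 2.84% for NANOG against OCT4 and at 2.99% and 3.91% for OCT4 against SOX2. The arrays read bulk RNA, so fewer cells expressing a gene and less of its RNA per cell cannot be told apart. Calls are from limma's moderated test on all 8 arrays, with Benjamini-Hochberg adjusted p under 0.05 over the 12436 genes.

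**Figure D1:**
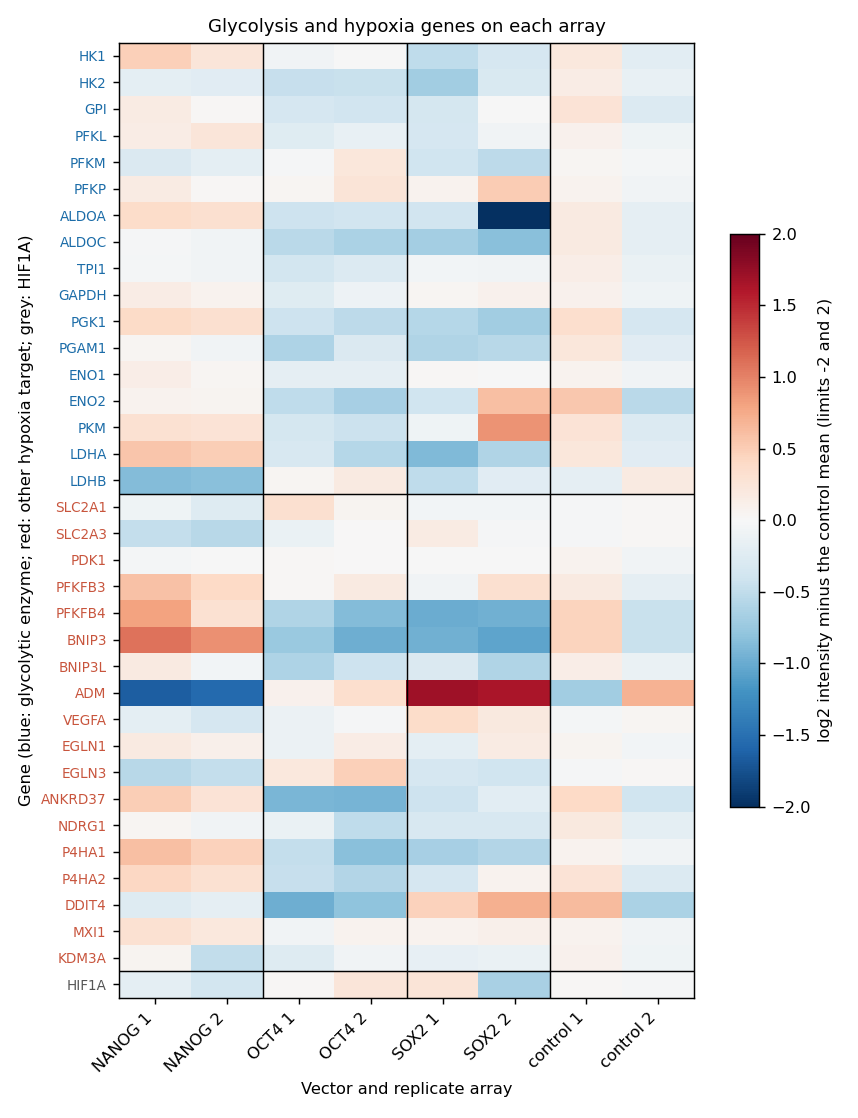
Each cell gives the log2 intensity (background corrected, offset of 50) of a gene on an array minus the mean of the 2 control arrays, for 36 genes in rows and 8 arrays in columns. BNIP3, PFKFB4, P4HA1 and LDHA are raised on both NANOG arrays and ADM is lowered there, and ALDOA on SOX2 replicate 2 lies at -2.25, beyond the colour limit.

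Against control few of these genes passed. In NANOG cells LDHB alone fell, which is 2.86% of the 35 genes, where 3.63% of all tested genes passed. In OCT4 cells 0 of 35 passed by limma, where 0.281% of all did, although 14 had an unadjusted p under 0.05, as did 7.6% of all tested genes. In SOX2 cells ADM rose and ALDOC, LDHA, BNIP3 and P4HA1 fell, or 14.3% of the 35, where 11.1% of all tested genes passed. By direction, all tested genes rose and fell at 2.74% and 0.885% in NANOG, 0.217% and 0.0643% in OCT4 and 6.1% and 5.01% in SOX2 cells. With both directions counted, the members' shares in NANOG and SOX2 cells were thus near those of all genes, while the genes that fell were 1 of 35 in NANOG and 4 of 35 in SOX2 cells. The 3 comparisons use the same 2 control arrays, so their values are not independent of each other.

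With only 2 arrays a group, many genes had arrays that did not overlap between groups. Of the 36 measured members, NANOG arrays lay wholly above SOX2 arrays for 20 and below for 7, against 27.4% and 30.5% of all tested genes. They lay above OCT4 arrays for 24 and below for 9, against 27.5% and 33.7% of all. OCT4 arrays lay above SOX2 arrays for 10 and below for 11, against 25.2% and 23.5% of all. Relative to control, NANOG arrays lay above for 11 and below for 9 (25.7% and 29.6% of all). OCT4 arrays lay above control for 3 and below for 19 (21.2% and 18.6% of all), and 12 of those 19 were glycolytic enzymes. SOX2 arrays lay above control for 3 and below for 17 (25.1% and 25.1% of all).

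The 2 control arrays differed from each other on these genes. Of the 36 genes, 30 read higher on control replicate 1 and 6 on replicate 2, while 53.2% of all tested genes read higher on replicate 1. Replicate 1 exceeded replicate 2 by a median of 0.35 log2 over the 17 glycolytic enzymes and 0.16 over the 18 measured hypoxia targets, against 0.02 over all tested genes. The gap exceeded 0.5 log2 for 27.8% of the genes in control cells, against 4.52% of all genes there. The largest gaps were those of ADM, at -1.40 log2, and DDIT4, at 1.27. ADM read 1508 and 3901 on control replicates 1 and 2, LDHB 2044 and 2637, and the stress gene DDIT4 1814 and 774, so ADM and LDHB were higher on replicate 2 while DDIT4 was higher on replicate 1. The tilt to replicate 1 was also present in NANOG cells, for 29 of the 36 genes, with a smaller median of 0.08 log2. Of all tested genes 50.3% read higher on replicate 1 there. For OCT4 and SOX2 cells 14 and 15 of the 36 did so, against 48.5% and 45.8% of all. In NANOG cells 1 gene differed by over 0.5 log2 between replicates, in OCT4 cells 0, and in SOX2 cells 4, or 11.1%. Of all tested genes, 0.137% did so in NANOG, 2.85% in OCT4 and 16.3% in SOX2 cells. A culture or array difference behind the control gap was not tested.

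**Figure D2:**
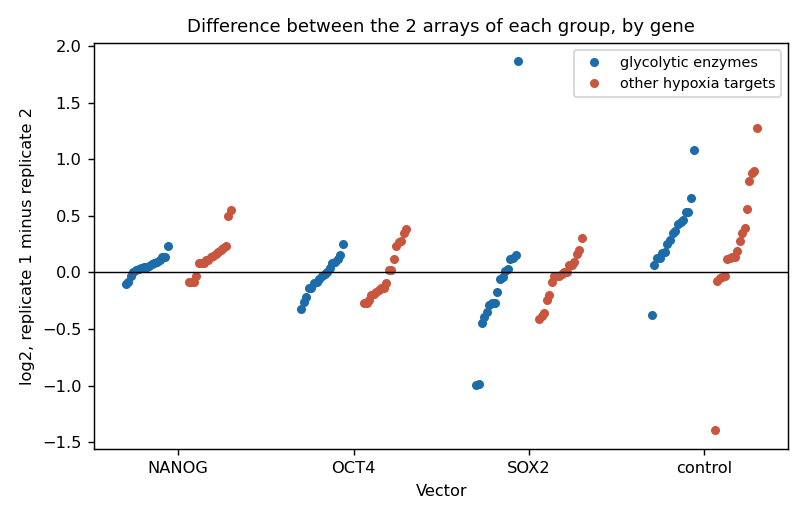
The vertical axis gives log2 intensity of replicate 1 minus replicate 2, and each point is a gene, with 17 glycolytic enzymes in blue and 18 hypoxia targets in red for each vector. In control cells 16 of the 17 glycolytic enzymes lie above 0 and ADM lies at -1.40.

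The promoters of 6 genes are shown as examples. BNIP3, PGK1, PFKFB4, P4HA1 and ADM differed between NANOG cells and both other factor groups, and LDHB moved against LDHA. LDHA, which also differed between NANOG cells and both other factor groups, is not shown. Each promoter shown is the 250 bases before the gene's annotated start in RefSeq (GRCh38.p14), read in the direction of the gene. The positions are BNIP3 at chr10:131981924-131982173 on the minus strand, PGK1 at chrX:78103998-78104247 on the plus strand, PFKFB4 at chr3:48556804-48557053 on the minus strand, P4HA1 at chr10:73096867-73097116 on the minus strand, ADM at chr11:10304823-10305072 on the plus strand and LDHB at chr12:21657843-21658092 on the minus strand. Capitals mark the core letters of the hypoxia response element, ACGTG or GCGTG, on either strand (CACGT or CACGC when read on the other), with overlapping matches joined.
BNIP3: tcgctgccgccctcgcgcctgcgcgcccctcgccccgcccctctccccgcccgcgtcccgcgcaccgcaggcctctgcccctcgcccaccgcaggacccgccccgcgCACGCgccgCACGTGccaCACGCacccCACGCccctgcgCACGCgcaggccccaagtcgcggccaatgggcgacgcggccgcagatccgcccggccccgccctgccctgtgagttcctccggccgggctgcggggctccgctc
PGK1: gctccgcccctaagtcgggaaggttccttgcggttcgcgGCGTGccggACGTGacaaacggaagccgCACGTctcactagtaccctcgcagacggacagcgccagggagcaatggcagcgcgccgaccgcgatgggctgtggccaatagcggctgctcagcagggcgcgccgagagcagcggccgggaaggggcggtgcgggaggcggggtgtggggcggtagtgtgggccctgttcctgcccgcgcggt
PFKFB4: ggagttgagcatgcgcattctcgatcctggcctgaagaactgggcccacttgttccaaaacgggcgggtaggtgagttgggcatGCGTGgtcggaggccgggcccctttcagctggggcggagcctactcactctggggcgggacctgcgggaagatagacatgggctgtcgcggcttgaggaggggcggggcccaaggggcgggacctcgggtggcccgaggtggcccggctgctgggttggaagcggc
P4HA1: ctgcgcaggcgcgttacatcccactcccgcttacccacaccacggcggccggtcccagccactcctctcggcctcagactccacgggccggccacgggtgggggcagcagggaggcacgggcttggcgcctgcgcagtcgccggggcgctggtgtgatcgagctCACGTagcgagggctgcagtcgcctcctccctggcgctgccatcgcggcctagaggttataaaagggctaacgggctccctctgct
ADM: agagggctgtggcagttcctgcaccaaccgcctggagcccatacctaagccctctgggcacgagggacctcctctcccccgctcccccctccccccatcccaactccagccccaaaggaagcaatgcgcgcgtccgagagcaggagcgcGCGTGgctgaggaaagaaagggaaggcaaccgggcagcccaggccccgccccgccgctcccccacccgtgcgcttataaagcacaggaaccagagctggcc
LDHB: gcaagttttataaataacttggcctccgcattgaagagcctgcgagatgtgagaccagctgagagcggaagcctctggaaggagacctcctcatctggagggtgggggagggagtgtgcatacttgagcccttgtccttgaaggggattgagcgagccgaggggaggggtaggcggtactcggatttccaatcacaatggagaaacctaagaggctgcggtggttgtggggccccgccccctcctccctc
BNIP3 has 5 such runs, PGK1 has 3, and PFKFB4, P4HA1 and ADM have 1 each, while LDHB has 0 in this window. LDHA, not shown, has 3 and 1 before its annotated starts. Over all 35116 promoters of the same length in the table, 43.2% hold at least 1 match. For the members, 38 of 64 promoters do, or 59.4%. The letters alone do not show binding, and ADM, with a match, moved opposite to BNIP3, with several.

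The first steps of glycolysis trap glucose and commit it. HK1, a hexokinase, read 6633 and 5658 in NANOG, 4577 and 4775 in OCT4, 3371 and 3795 in SOX2 and 5556 and 4133 in control cells. Its level was higher in NANOG than in SOX2 cells (log2 difference 0.78, SE 0.16, adjusted p = 0.0132), with no overlap of arrays. The other hexokinase measured, HK2, spanned 229 to 377 and passed in no comparison. PFKM, the muscle-type phosphofructokinase, read 480 and 566 in OCT4 cells, against 382 and 354 in SOX2 cells, and was higher in OCT4 cells (log2 0.56, SE 0.13, adjusted p = 0.0360). PFKM read 408 and 430 in NANOG cells and 499 and 478 in control cells, all above the SOX2 arrays. GPI, PFKL and PFKP passed in no comparison.

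Of the aldolase genes, ALDOC was lower in SOX2 than in NANOG and control cells, while ALDOA remained in doubt. ALDOC, the brain-type aldolase gene, read 1059 and 957 in SOX2 cells, 1649 and 1594 in NANOG cells, 1157 and 1095 in OCT4 cells and 1890 and 1476 in control cells. It fell in SOX2 cells against control (log2 -0.76, SE 0.14, adjusted p = 0.0147) and was higher in NANOG than in SOX2 cells (log2 0.71, SE 0.14, adjusted p = 0.0112). The SOX2 and OCT4 arrays thus lay below all NANOG and control arrays, and ALDOC was at -0.59 in OCT4 cells against control (adjusted p = 0.222). ALDOA, the main aldolase, read 7079 and 6840 in NANOG cells, against 4221 and 1187 in SOX2 cells, with 4104 and 4188 in OCT4 and 6169 and 4852 in control cells. The call in NANOG against SOX2 cells (log2 1.66, SE 0.48, adjusted p = 0.0451) owes its size to the low value of SOX2 replicate 2. Without that array the difference was 0.73 (adjusted p = 0.0114), and without SOX2 replicate 1 it was 2.60. A further ALDOA probe, ILMN_1741148, read 4621 and 4481 in NANOG cells, against 2590 and 4012 in SOX2 cells, a log2 difference of 0.50. On that probe SOX2 replicate 2 was the higher of the SOX2 arrays, opposite to the main probe. The same probe read 2666 and 2542 in OCT4 and 4090 and 2748 in control cells. Against control it was at -0.06 log2 in SOX2 cells and -0.37 in OCT4 cells.

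In the lower part of the pathway, which yields ATP, PGK1 passed while its bright neighbours did not. PGK1, the first enzyme to make ATP, read 5494 and 5219 in NANOG, 3179 and 2938 in OCT4, 2859 and 2616 in SOX2 and 5269 and 3355 in control cells. Its level was higher in NANOG than in SOX2 cells (log2 0.98, SE 0.20, adjusted p = 0.0111) and than in OCT4 cells (log2 0.82, SE 0.20, adjusted p = 0.0431). The call against OCT4 was lost with an offset of 16, with no filter and with the filter on all 8 arrays (adjusted p of up to 0.0577). Control replicate 1 lay with the NANOG arrays and control replicate 2 nearer the OCT4 and SOX2 arrays. A further PGK1 probe, ILMN_2216852, gave log2 differences of 1.08 against SOX2 and 0.91 against OCT4. TPI1, GAPDH, PGAM1 and ENO1, all bright, passed in no comparison. For GAPDH the NANOG against SOX2 difference was 0.04 log2 (95% interval -0.22 to 0.31). For ENO1 it was 0.08 (95% interval -0.17 to 0.33). NANOG against OCT4 was at 0.28 for GAPDH (adjusted p = 0.218) and 0.27 for ENO1 (adjusted p = 0.191). PGAM1 was at 0.57 for NANOG against SOX2 (adjusted p = 0.0543) and 0.45 against OCT4 (adjusted p = 0.177). A further PGAM1 probe, ILMN_1661366, gave 1.44 and 0.55, with SOX2 arrays far apart at 1894 and 811. PKM, the pyruvate kinase, read 893 and 1723 in SOX2 cells and 1130 and 791 in control cells, while NANOG cells had 1158 and 1138 and OCT4 cells 753 and 711, and it passed nowhere. The SOX2 arrays also lay far apart for ENO2, at 509 and 973.

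The lactate dehydrogenase genes moved in opposite directions in NANOG cells. LDHA encodes the subunit of the muscle-type enzyme, which favours lactate, and LDHB that of the heart-type enzyme. LDHA read 11621 and 11173 in NANOG, 6356 and 5355 in OCT4, 4344 and 5242 in SOX2 and 9361 and 6779 in control cells. Both NANOG arrays lay above all others. LDHA was 2.40-fold higher in NANOG than in SOX2 cells (log2 1.26, SE 0.18, adjusted p = 0.00250) and 1.96-fold higher than in OCT4 cells (log2 0.97, SE 0.18, adjusted p = 0.0148). It fell in SOX2 cells against control (log2 -0.74, SE 0.18, adjusted p = 0.0338), and in NANOG cells against control the difference was 0.52 (adjusted p = 0.180). A further LDHA probe, ILMN_1807106, gave 1.34, 1.09 and -0.79 for the 3 comparisons that passed. LDHB read 1288 and 1314 in NANOG, 2388 and 2621 in OCT4, 1638 and 1993 in SOX2 and 2044 and 2637 in control cells. Both NANOG arrays lay below all others. LDHB fell in NANOG cells against control (log2 -0.86, SE 0.16, adjusted p = 0.0266) and was lower in NANOG than in OCT4 cells (log2 -0.97, SE 0.16, adjusted p = 0.00873), while NANOG against SOX2 was at -0.49 (adjusted p = 0.0682).

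**Figure D3:**
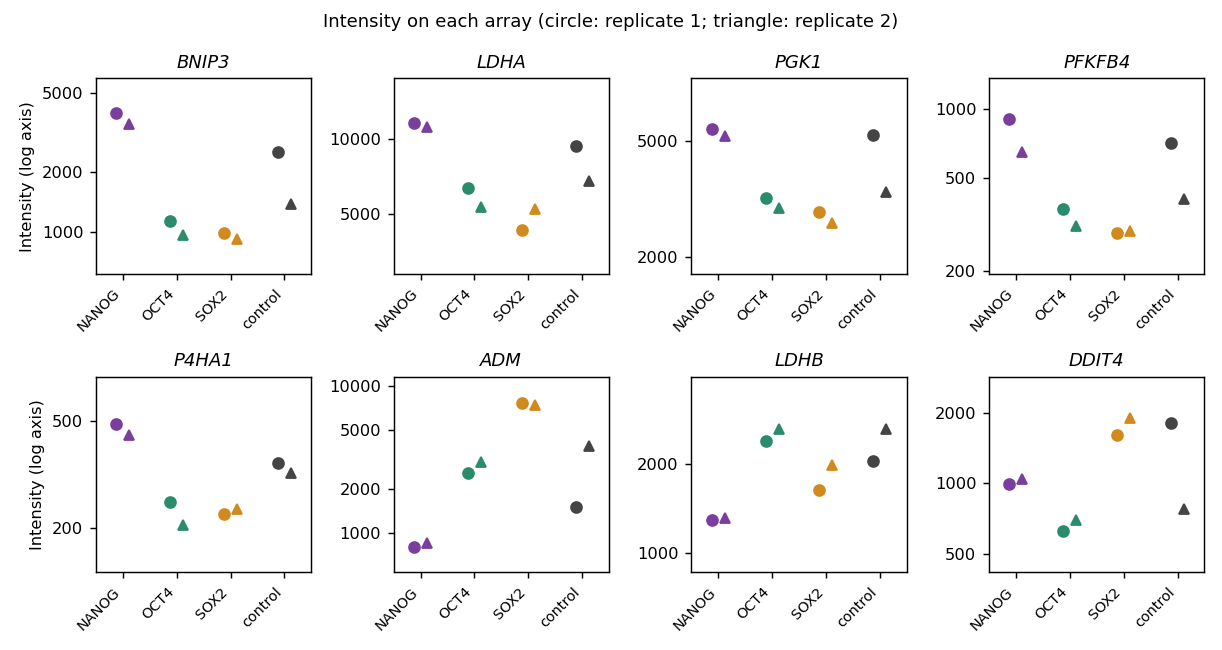
Intensity on a log axis is shown for 8 genes on each array, by vector, with circles for replicate 1 and triangles for replicate 2. Both NANOG arrays are the highest for BNIP3, LDHA and P4HA1 and the lowest for ADM and LDHB.

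Of the glucose transporters, SLC2A3 ran opposite to LDHA between NANOG and SOX2 cells. SLC2A3, which encodes the high-affinity transporter GLUT3, read 6423 and 6071 in NANOG cells, against 9980 and 8725 in SOX2, 8151 and 8938 in OCT4 and 8775 and 9018 in control cells. It was lower in NANOG than in SOX2 cells (log2 -0.58, SE 0.12, adjusted p = 0.0122), and against control the difference was -0.51 (adjusted p = 0.0565). SLC2A1, which encodes GLUT1, read 2741 and 2451 in NANOG, 3637 and 3024 in OCT4, 2802 and 2797 in SOX2 and 2874 and 2945 in control cells and passed nowhere. The flux regulator PFKFB4, which sets the level of the phosphofructokinase activator fructose 2,6-bisphosphate, read 901 and 652 in NANOG, 369 and 312 in OCT4, 290 and 296 in SOX2 and 711 and 407 in control cells. The NANOG arrays lay above the OCT4 and SOX2 arrays, and control replicate 1 lay between the NANOG arrays. The difference was 1.53 log2 against SOX2 (SE 0.27, adjusted p = 0.00713) and 1.29 against OCT4 (SE 0.27, adjusted p = 0.0282). Its relative PFKFB3 ranged from 557 to 916 and passed nowhere.

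BNIP3 had the largest rise of any of these genes in NANOG cells relative to the other factor vectors. It encodes an outer mitochondrial membrane protein that marks mitochondria for removal in low oxygen. BNIP3 read 3924 and 3475 in NANOG, 1129 and 967 in OCT4, 980 and 921 in SOX2 and 2525 and 1377 in control cells. The groups did not overlap, except for OCT4 and SOX2, and the 2 control arrays were themselves apart. BNIP3 was 4.02-fold higher in NANOG than in SOX2 cells (log2 2.01, SE 0.25, adjusted p = 0.00141) and 3.64-fold higher than in OCT4 cells (log2 1.86, SE 0.25, adjusted p = 0.00417). It fell in SOX2 cells against control, which read 2.01-fold higher (log2 SE 0.25, adjusted p = 0.0397), and in NANOG cells the difference from control was 1.00 (adjusted p = 0.0745). The related mitophagy receptor gene BNIP3L spanned 367 to 605 and passed nowhere, at 0.51 for NANOG against SOX2 (adjusted p = 0.0647).

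The prolyl 4-hydroxylase genes, whose products modify collagen in the endoplasmic reticulum, were also higher in NANOG than in OCT4 cells. P4HA1 read 484 and 444 in NANOG, 250 and 205 in OCT4, 225 and 236 in SOX2 and 347 and 319 in control cells. The NANOG arrays were the highest and the control arrays came next, with no overlap. The difference was 1.16 log2 against SOX2 (SE 0.14, adjusted p = 0.00124) and 1.19 against OCT4 (SE 0.14, adjusted p = 0.00244). P4HA1 fell in SOX2 cells against control (log2 -0.63, SE 0.14, adjusted p = 0.0290). P4HA2 read 432 and 402 in NANOG, 253 and 237 in OCT4, 272 and 349 in SOX2 and 396 and 282 in control cells, and passed against OCT4 (log2 0.89, SE 0.20, adjusted p = 0.0360), a call lost with the replicate block (adjusted p = 0.0548). The HIF target ANKRD37 read 290 and 255 in NANOG, 136 and 134 in OCT4, 174 and 193 in SOX2 and 275 and 175 in control cells. Its OCT4 arrays were the lowest, and it was higher in NANOG than in OCT4 cells (log2 1.31, SE 0.23, adjusted p = 0.0133). The other targets NDRG1, MXI1, KDM3A and EGLN1 passed in no comparison, and the last 3 of them read no more than 165.

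ADM stood against the enzymes. It encodes adrenomedullin, a vasodilating peptide. ADM read 804 and 851 in NANOG, 2566 and 3029 in OCT4, 7770 and 7430 in SOX2 and 1508 and 3901 in control cells. The 3 factor groups did not overlap, and the OCT4 arrays lay between the control arrays. ADM was 9.63-fold higher in SOX2 than in NANOG cells, which is a log2 difference of -3.27 for NANOG minus SOX2 (SE 0.36, adjusted p = 0.000815). It was lower in NANOG than in OCT4 cells (log2 -1.81, SE 0.36, adjusted p = 0.0220) and in OCT4 than in SOX2 cells (log2 -1.46, SE 0.36, adjusted p = 0.0496). The call between OCT4 and SOX2 cells was lost under 6 settings that kept all arrays. ADM rose in SOX2 cells against control (log2 1.67, SE 0.36, adjusted p = 0.0242), and NANOG against control was at -1.60 (adjusted p = 0.0524). The SOX2 value against control was 0.97 without control replicate 1 and 2.37 without control replicate 2, and its call was lost with only the 2 groups compared and with array weights.

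VEGFA and DDIT4 were the other stress-linked targets with a call. VEGFA, the endothelial growth factor gene, was dim, at 145 and 135 in NANOG, 151 and 158 in OCT4, 194 and 178 in SOX2 and 157 and 163 in control cells. It was lower in NANOG than in SOX2 cells (log2 -0.55, SE 0.12, adjusted p = 0.0151). DDIT4, an inhibitor of the growth kinase mTORC1, read 624 and 698 in OCT4 cells, against 1611 and 1903 in SOX2 cells, with 991 and 1046 in NANOG and 1814 and 774 in control cells. It was lower in OCT4 than in SOX2 cells (log2 -1.47, SE 0.34, adjusted p = 0.0378), and the control arrays spanned most of that range. Targets of ATF4, the transcription factor of amino acid and endoplasmic reticulum stress, moved with the SOX2 vector too. Of 12 measured, 8 rose and 1 fell against control, where 6.1% of all tested genes rose and 5.01% fell. TRIB3 rose by 3.13 log2 (adjusted p = 0.000267) and DDIT3 by 2.32 (adjusted p = 0.000238). The summed intensity of the 12 was 14661 and 14730 in NANOG, 19634 and 24452 in OCT4, 34021 and 32342 in SOX2 and 16800 and 22288 in control cells. Their part in the ADM, VEGFA and DDIT4 values was not tested.

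**Figure D4:**
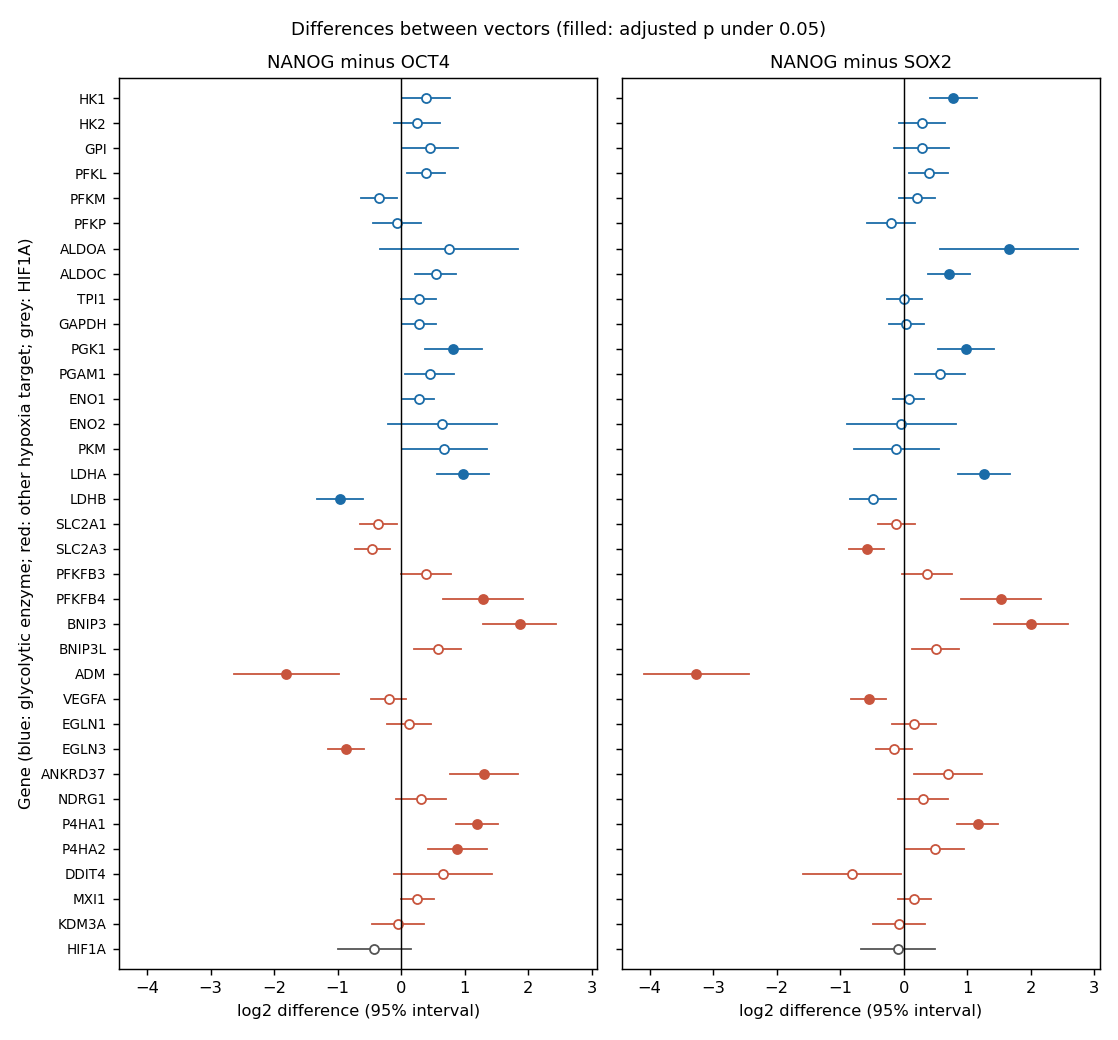
Points give the log2 difference of NANOG minus OCT4 cells (left) and NANOG minus SOX2 cells (right) for 35 genes, with 95% intervals, and filled points passed. ADM has the lowest difference in both panels, at -1.81 and -3.27, and BNIP3 the highest, at 1.86 and 2.01.

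Among the oxygen sensors, EGLN3, which encodes a prolyl hydroxylase that is itself a HIF target, was higher in OCT4 cells than in the other factor groups. It read 109 and 113 in NANOG, 157 and 181 in OCT4, 121 and 117 in SOX2 and 140 and 143 in control cells. Both arrays of NANOG and of SOX2 cells were below the filter intensity of 123.7, so only bounds hold. EGLN3 was at least 1.55-fold higher in OCT4 than in NANOG cells (adjusted p = 0.00507) and at least 1.55-fold higher in OCT4 than in SOX2 cells (adjusted p = 0.0135). This direction is opposite to that of BNIP3, P4HA1 and ANKRD37 between NANOG and OCT4 cells. HIF1A, the oxygen-regulated subunit itself, spanned 250 to 432 and passed nowhere. Its NANOG against SOX2 difference was -0.09 log2, with a 95% interval of -0.67 to 0.49. HIF1A is controlled mainly through protein stability, which arrays do not measure.

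Further genes of the pathway came from lists chosen beside the members. Of 12 tested HIF pathway components, EPAS1 alone was higher in NANOG cells than in each of the other groups. Between NANOG and SOX2 cells 1 of the 12 passed as higher and 2 as lower, or 25%, against 17.7% of all tested genes. The 2 lower genes were ARNT2 and CITED2. The ARNT2 call was lost with only the 2 groups compared. That on CITED2 was lost with no background correction, with no filter and with array weights. Against control 16.7% of the 12 passed in NANOG cells, where 3.63% of all tested genes did. EPAS1 encodes the HIF2 alpha subunit and read 320 and 267 in NANOG, 153 and 120 in OCT4, 173 and 203 in SOX2 and 144 and 152 in control cells. The log2 differences were 1.43 against OCT4 (adjusted p = 0.00431), 0.78 against SOX2 (adjusted p = 0.0272) and 1.24 against control (adjusted p = 0.0140). The HIF coactivator antagonist CITED2 fell in NANOG cells against control (log2 -1.13, adjusted p = 0.0418), a call lost without any control or NANOG array, with no background correction and with the filter on all 8 arrays. All 3 EPAS1 calls were lost without NANOG replicate 1 (adjusted p of 0.0741 to 0.214). The call against control was also lost without NANOG replicate 2 or either control array, and that against SOX2 without NANOG replicate 2, with only the 2 groups compared and with array weights.

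Of 23 tested further hypoxia targets, 8 were higher and 4 lower in NANOG than in SOX2 cells, and 7 were higher and 1 lower in NANOG than in OCT4 cells. These are 52.2% and 34.8% of the list, against 17.7% and 7.16% of all tested genes. PGM1, which links glycogen to glycolysis, read 7890 and 6779 in NANOG, 1503 and 1161 in OCT4, 1239 and 1274 in SOX2 and 3331 and 1584 in control cells. It was higher in NANOG than in SOX2 cells by 2.58 log2 (SE 0.31, adjusted p = 0.00104). As with BNIP3, control replicate 1 exceeded replicate 2. STC2 and HMOX1 followed ADM instead, with NANOG against SOX2 differences of -1.99 (adjusted p = 0.000337) and -1.84 (adjusted p = 0.000395). STC2, a secreted glycoprotein gene, read 288 and 279 in NANOG cells, against 942 and 1062 in SOX2 cells.

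The entry of pyruvate into mitochondria was followed through 21 tested genes of pyruvate dehydrogenase and the TCA cycle. In NANOG cells against SOX2 cells 4 were higher and 0 lower, or 19.0% of the list. Of all tested genes 17.7% passed there, 8.81% as higher and 8.93% as lower. In SOX2 cells against control 0 of the list rose and 4 fell, where 6.1% of all tested genes rose and 5.01% fell. PDHB, a pyruvate dehydrogenase subunit gene, read 5579 and 5162 in NANOG, 3117 and 3323 in OCT4, 2013 and 1937 in SOX2 and 3901 and 3510 in control cells. It was higher in NANOG than in SOX2 cells (log2 1.46, SE 0.11, adjusted p = 0.000152) and fell in SOX2 cells against control (log2 -0.92, SE 0.11, adjusted p = 0.00274). SUCLA2, a subunit of succinyl-CoA ligase, was higher in NANOG than in SOX2 cells by 2.19 log2 (adjusted p = 0.000319) and than in OCT4 cells by 1.73 (adjusted p = 0.00193). Of 6 further glycolysis and lactate transport genes tested, PGAM4 alone passed, higher in NANOG than in SOX2 cells (log2 0.62, adjusted p = 0.0123), and PGAM4 is a close copy of PGAM1. That is 16.7% of the list, where 17.7% of all tested genes passed, 8.81% as higher. FBP1, a gluconeogenic enzyme gene that opposes phosphofructokinase, rose against control in SOX2 cells (log2 1.55, adjusted p = 0.000614) and in NANOG cells (log2 1.20, adjusted p = 0.00256). Its readings were 378 and 414 in SOX2, 332 and 305 in NANOG and 168 and 157 in control cells. Of 4 tested gluconeogenesis genes, PCK2 rose too in SOX2 cells against control, a call lost with only the 2 groups compared. These 2 are 50% of the list, where 6.1% of all tested genes rose. PCK2 was also lower in NANOG than in SOX2 cells. The FBP1 call in NANOG cells was lost without NANOG replicate 1 (adjusted p = 0.0649), and the PGAM4 call was lost without that array and with only the 2 groups compared. Of 79 calls on genes of the further lists, 29 held under every setting.

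The glycolytic enzymes, many of which are HIF targets themselves, were set beside the other hypoxia targets. Over all 17 enzymes the median log2 difference was 0.28 for NANOG against SOX2 and 0.39 for NANOG against OCT4, while over the 18 measured hypoxia targets it was 0.17 and 0.28. The medians over all tested genes were -0.02 and -0.02. Of the 17 enzymes, 13 lay above SOX2 and 14 above OCT4 in NANOG cells. The hypoxia targets lay above in 10 and 11 of 18. The targets had the wider range, from -3.27 (ADM) to 2.01 (BNIP3) for NANOG against SOX2, while the enzymes ran from -0.49 (LDHB) to 1.66 (ALDOA). Against control, the enzyme median was -0.36 in OCT4 and -0.37 in SOX2 cells and 0.09 in NANOG cells. The target median was -0.12, -0.09 and 0.03 in the same cells. On single arrays the enzyme median relative to the control mean was 0.15 and 0.05 in NANOG, -0.34 and -0.30 in OCT4, -0.40 and -0.22 in SOX2 and 0.17 and -0.17 in control cells. The OCT4 and SOX2 arrays thus lay below both control arrays, and the NANOG arrays lay between them. No test was made on these medians.

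**Figure D5:**
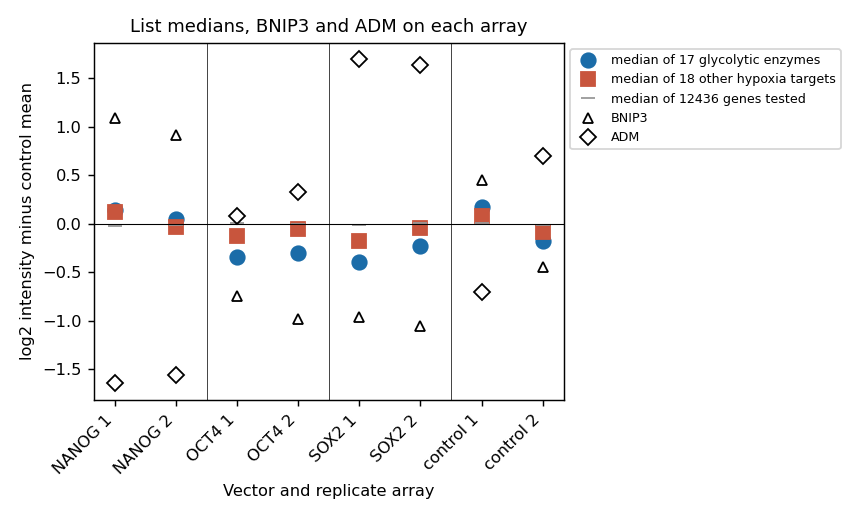
The vertical axis gives log2 intensity minus the control mean for each of the 8 arrays, as the median of 17 glycolytic enzymes, of 18 other hypoxia targets and of all tested genes, with BNIP3 and ADM as single genes. BNIP3 and ADM lie on opposite sides of 0 on all 8 arrays, control arrays included.

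Of the 31 calls on these genes, 4 held with any array left out and under every other setting: ADM, BNIP3, LDHA and P4HA1 between NANOG and SOX2 cells. In that comparison 4 genes passed without NANOG replicate 1 and 5 without NANOG replicate 2, and ALDOA was also lost without any OCT4 or control array. Between NANOG and OCT4 cells the count of 10 was 0 without NANOG replicate 1, 2 without NANOG replicate 2, 5 without OCT4 replicate 1 and 1 without OCT4 replicate 2, and it was 17 without either SOX2 array. Of the 5 calls in SOX2 cells against control, ALDOC, LDHA, BNIP3 and P4HA1 were lost without control replicate 1, P4HA1 also without control replicate 2, BNIP3 also without SOX2 replicate 2, all but ALDOC without either NANOG array, and LDHA and BNIP3 without either OCT4 array. The count there was 12 without SOX2 replicate 1. Leaving out control replicate 2 gave 8 calls there and leaving out control replicate 1 gave 2, with 3 when either OCT4 array was dropped and 1 when either NANOG array was. The LDHB call against control was lost without control replicate 2 or either NANOG array, and the count for NANOG against control was 3 without control replicate 1 and 6 without either SOX2 array. For OCT4 against control 1 gene passed without control replicate 2. Between OCT4 and SOX2 cells the 4 calls were 0 without OCT4 replicate 2, 1 without any other OCT4 or NANOG array or SOX2 replicate 2, and 8 without SOX2 replicate 1. With all arrays kept, all 5 calls in SOX2 cells against control were lost when only the 2 groups were compared, LDHA also with the mean of all probes and BNIP3 also with no filter. PFKM was lost under 5 such settings and DDIT4 under 4, the replicate block among them for both. All 31 kept their sign throughout.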

How the data were processed

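The authors deposited a linear intensity for each of 47323 probes and 8 arrays, ranging from 86.3 to 22884. Sorted values differed by at most 2.30 between arrays, so they had been quantile normalized. No source names the tool. Of a second table, with unnormalized signals, 16 columns have names that match no sample's label, and they were not used.

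Intensities were corrected with normexp (offset 50, limma 3.58.1, R 4.3.3) and put on the log2 scale. Probes over 123.7, the 60th percentile, on at least 2 arrays were kept, and the brightest probe of each symbol gave 12436 genes. Of the probes, 30113 had 1 symbol, 8 several and 17202 none. A limma model (lmFit, eBayes) with a mean per group was fitted to all 8 arrays (4 residual and 4.39 prior degrees of freedom). P-values are two-sided and were adjusted over 12436 genes by the Benjamini-Hochberg method. Folds include the offset, which understates dim genes, and a gene below the filter on both arrays of a group has only a bound. The procedure was also run on simulated data with the same noise for every gene and array. That run does not check calls where the measured arrays differ in spread. With 2 arrays per group, the number of arrays limits precision.

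The genes and lists were chosen with earlier results of these data known. Values of every array are given for genes past the threshold, ADM and, for each factor against control, the 3 largest and 3 smallest changes. Named genes of further lists are among the 4 largest passing changes per list and comparison. Alternatives were other background corrections, filters, probe summaries, fits and a replicate block, and each array left out. Figures were drawn with matplotlib 3.10.9. RefSeq promoters of GRCh38.p14 matched 34 of the 38 genes.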

Additional observations from a re-analysis of the deposited data

How the results depend on the processing

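With 2 arrays a group, single arrays decide many calls, and limits of dim genes such as EGLN3 and VEGFA come from signal near background. Of the member calls under settings that kept all arrays, 273 were kept and 35 lost, and with 1 array left out 160 were kept and 88 lost. Whether the replicate numbers pair the samples is not labelled. Correlations of same-numbered deviations between groups ran from -0.19 to 0.38, the highest between OCT4 and control, and these alone cannot settle it. With the replicate block 3 members passed for NANOG against control and 2 for OCT4 against SOX2. The block ended the calls on P4HA2 (NANOG against OCT4), PFKM and DDIT4 (both OCT4 against SOX2). For NANOG against control, where 1 passed, the count was 2 with no background correction, an offset of 16, the mean of all probes or no filter, 6 with only the 2 groups, 8 with array weights and 4 with an intensity trend. For NANOG against OCT4 it was 23 with only the 2 groups and 20 with array weights, against 10. For OCT4 against SOX2 it was 2 with no background correction, an offset of 16, no filter, the filter on all 8 arrays or only the 2 groups, and 1 with array weights, against 4. For SOX2 against control it was 0 with only the 2 groups and 1 with array weights, against 5. Fewer arrays in the fit leave fewer degrees of freedom, and the cause of any of these changes was not tested.

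With each array left out, the counts ran from 0 to 6 for NANOG against control, 0 to 1 for OCT4 against control, 1 to 12 for SOX2 against control, 0 to 17 for NANOG against OCT4, 4 to 16 for NANOG against SOX2 and 0 to 8 for OCT4 against SOX2. The enzyme median ran from 0.02 to 0.21 in NANOG, -0.58 to -0.12 in OCT4 and -0.45 to -0.21 in SOX2 cells against control. The median of the other targets ran from -0.09 to 0.20 in NANOG, -0.17 to -0.05 in OCT4 and -0.18 to 0.05 in SOX2 cells. It changed sign in NANOG cells without control replicate 2 (-0.0853) and in SOX2 cells without control replicate 1 (0.0459).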
